A study of Mus musculus with 11 samples.

Results

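This is an account of 10 genes of antigen presentation on MHC class II and of epidermal Langerhans cells in cells sorted by keratinocyte surface markers from mouse epidermal back skin (EBS). The 10 genes were taken by name (Cd74, H2-Aa, H2-Ab1, H2-Eb1, H2-DMa, H2-DMb1, Ciita, Cd207, Epcam and Mfge8), among 55536 Ensembl genes in the count files. All 10 were among the 20307 genes that passed the filter on low counts and were tested. RNA was sequenced from cells of CD4Cre/R26-tdT lineage-tracing male mice on a C57Bl6/N background, in which a Cre driven by Cd4 regulatory sequence switches on the red reporter tdTomato (tdT) for good, so that a tdT+ cell has expressed the Cre or descends from a cell that did. All libraries carry both transgenes, and tdT+ and tdTneg cells came from the same kind of animal. The animals were 29 weeks old in replicate 1 and 32 weeks old in replicates 2 and 3, and each library pooled the cells of 2 mice.

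Cells were gated on CD49f (integrin alpha6, a basal keratinocyte marker), CD34 (a marker of bulge stem cells in the hair follicle) and SCA-1 (a marker of the infundibulum and interfollicular basal layer). The 4 sorted groups were tdT+CD49f+CD34+ (3 libraries), tdTnegCD49f+CD34+ (3 libraries), tdT+CD49f+CD34+SCA-1+ (3 libraries) and tdTnegCD49f+CD34+SCA-1+ (2 libraries). The first pair, which was SCA-1 negative, is called bulge here, and the second pair SCA-1+. An antibody to the leukocyte antigen CD45 was not among the sort antibodies given.

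MHC class II molecules are pairs of an alpha and a beta chain (H2-Aa with H2-Ab1, and H2-Eb1 with an alpha chain that C57BL/6 mice do not express) that carry peptides to the cell surface for CD4 T cells to read. The invariant chain Cd74 holds the newly made pair until peptide is loaded, H2-DMa and H2-DMb1 form the chaperone that helps to exchange the invariant chain remnant for peptide, and Ciita is the coactivator on which their transcription depends. In the epidermis at rest these molecules are carried mainly by Langerhans cells, resident dendritic cells that also carry the lectin langerin (Cd207) and the adhesion molecule Epcam, while Mfge8 encodes a secreted bridging protein for the uptake of dying cells. Epcam is also made by epithelial cells.

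Class II genes are known for paired promoter elements, the X box and the Y box, on which the factors that recruit Ciita assemble. RefSeq promoter windows of 300 bases (GRCm38.p6, 250 bases before and 50 after the transcription start) were at hand for 7 of the 10 genes, and not for Cd74, H2-Ab1 and Ciita. Both strands were searched for the Y box letters GATTGG. The windows of H2-Eb1, H2-DMb1 and H2-Aa hold the Y box close to the transcription start. They are shown because H2-Aa and H2-Eb1 belong to the genes that changed together below, while H2-DMb1, with the same letters at a like distance, did not pass the test. Sequences run 5′ to 3′ on the gene's strand and capitals mark the matches, the second Y box of H2-Eb1 being on the opposite strand.
H2-Eb1 (chr17:34305617-34305916, plus strand): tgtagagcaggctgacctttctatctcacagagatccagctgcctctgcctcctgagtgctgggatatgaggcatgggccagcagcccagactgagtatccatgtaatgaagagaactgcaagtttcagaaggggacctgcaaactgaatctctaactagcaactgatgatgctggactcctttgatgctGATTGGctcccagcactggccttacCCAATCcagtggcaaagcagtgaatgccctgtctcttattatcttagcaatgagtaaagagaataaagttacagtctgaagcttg
H2-DMb1 (chr17:34152941-34153240, plus strand): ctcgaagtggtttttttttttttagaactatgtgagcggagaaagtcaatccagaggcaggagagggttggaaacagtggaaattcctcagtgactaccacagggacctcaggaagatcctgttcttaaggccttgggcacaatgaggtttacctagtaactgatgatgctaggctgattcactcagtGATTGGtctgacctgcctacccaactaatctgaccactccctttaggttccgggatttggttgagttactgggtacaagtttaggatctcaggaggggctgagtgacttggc
H2-Aa (chr17:34287774-34288073, minus strand): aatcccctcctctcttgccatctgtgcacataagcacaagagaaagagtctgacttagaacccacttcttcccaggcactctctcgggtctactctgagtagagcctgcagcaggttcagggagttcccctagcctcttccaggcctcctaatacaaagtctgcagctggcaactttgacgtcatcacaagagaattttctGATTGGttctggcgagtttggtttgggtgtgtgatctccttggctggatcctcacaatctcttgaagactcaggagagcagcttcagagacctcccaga
The Y box nearest to the middle lies at bases 191 to 196 of the H2-Eb1 window, 189 to 194 of the H2-DMb1 window and 202 to 207 of the H2-Aa window. Of 32851 promoter windows searched, 16.1% held these letters on either strand. Of the 2 windows of H2-DMa, 1 holds a Y box, and those of Cd207, Epcam and Mfge8 hold no match.

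In the Ensembl 96 annotation (GRCm38), 6 of the 10 genes lie on chromosome 17. H2-DMa (ENSMUSG00000037649, chr17:34119541-34139101), H2-DMb1 (ENSMUSG00000079547, chr17:34153072-34160230), H2-Ab1 (ENSMUSG00000073421, chr17:34257689-34269419), H2-Aa (ENSMUSG00000036594, chr17:34282744-34287823) and H2-Eb1 (ENSMUSG00000060586, chr17:34305867-34316674) sit close together in the class II region, H2-Aa on the minus strand and the others on the plus strand. Epcam (ENSMUSG00000045394) is far from them at chr17:87635979-87651129. Cd74 (ENSMUSG00000024610) is at chr18:60803848-60812652, Ciita (ENSMUSG00000022504) at chr16:10480059-10528418, Mfge8 (ENSMUSG00000030605) at chr7:79133768-79149060 and Cd207 (ENSMUSG00000034783) at chr6:83671215-83677857. All are protein-coding, and counts were taken over their exons. H2-DMa shares 360 exon bases with Brd2 and Ciita shares 329 with Dexi, both on the opposite strand. The library kit does not mark strand, so reads from those stretches cannot be assigned to either gene of a pair, and H2-DMb1 counts are uncertain as well because H2-DMb2 is a near-identical neighbour.

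Libraries held 17409131 to 46542177 counts in genes, so that even the weakest gene of the 10 had counts above 0 in every library. A level is given as normalized counts per 1000000 counts (CPM), scaled by edgeR's TMM factors, and a level compared between genes as CPM per kilobase of exon (RPKM). The library labelled tdT+ bulge replicate 2 stood apart from its group. A row of the files that is no Ensembl gene, given here per 1000000 counts of the library without TMM scaling, was at 133 to 307 in the other 5 tdT+ libraries, 2.54 to 4.89 in the 5 tdTneg libraries and 2.05 in that library. The endothelial gene Pecam1 had 175 CPM there against 5.21 and 1.05 CPM in the other tdT+ bulge libraries. That row went with the tdT label in the other 10 libraries and against it in this one, so the tdT+ label of this library is in doubt, and with it the means of the tdT+ bulge group and the tdT comparison in the bulge. For the 10 genes the edgeR results that rest on it are given with and without it, and DESeq2 was run only with it. Keratin 5 (Krt5) was at 8213 to 16210 CPM in all 11 libraries. Ly6a, which encodes SCA-1, was at 2.46 to 59.2 CPM in bulge and 153 to 294 CPM in SCA-1+ libraries, and Cd34 was at 468 to 1130 CPM in bulge libraries, 320 and 383 CPM in the tdTneg SCA-1+ libraries and only 22.3 to 35.7 CPM in the tdT+ SCA-1+ libraries. On a list of 6 keratinocyte and sort genes, Krt14 was called higher (log2 fold change 1.28, adjusted p = 0.0016) and Krt15 lower (-1.17, adjusted p = 0.0038) in SCA-1+ than in bulge cells by edgeR, beside the sort genes Ly6a, Itga6 and Cd34.

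The classical class II genes had the same order of levels across the sorted groups, highest in tdTneg SCA-1+ cells and lowest in tdTneg bulge cells. Cd74 was at 48.4, 148 and 27.0 CPM in tdT+ bulge replicates 1 to 3, at 25.6, 26.2 and 5.61 CPM in tdTneg bulge replicates 1 to 3, at 161, 94.5 and 164 CPM in tdT+ SCA-1+ replicates 1 to 3, and at 284 and 327 CPM in tdTneg SCA-1+ replicates 1 and 2. Group means were 74.6 ± 64.7 (SD, n = 3), 19.1 ± 11.7 (n = 3), 139.8 ± 39.2 (n = 3) and 306 ± 30.1 CPM (n = 2) in that order of groups. The tdTneg SCA-1+ libraries lay above every other library, and the library labelled tdT+ bulge replicate 2 lay within the range of the tdT+ SCA-1+ libraries.

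H2-Aa, the alpha chain, was at 37.6, 65.6 and 16.3 CPM in tdT+ bulge, 6.69, 13.8 and 3.07 CPM in tdTneg bulge, 62.2, 51.6 and 69.0 CPM in tdT+ SCA-1+ and 95.6 and 123 CPM in tdTneg SCA-1+ libraries. Its partner H2-Ab1 was at 20.5, 68.1 and 16.4 CPM in tdT+ bulge, 10.7, 19.3 and 4.03 CPM in tdTneg bulge, 73.5, 71.0 and 84.0 CPM in tdT+ SCA-1+ and 122 and 126 CPM in tdTneg SCA-1+ libraries. H2-Eb1 was at 26.4, 55.8 and 9.86 CPM in tdT+ bulge, 7.58, 9.89 and 2.37 CPM in tdTneg bulge, 65.3, 45.5 and 71.4 CPM in tdT+ SCA-1+ and 114 and 98.3 CPM in tdTneg SCA-1+ libraries. For all 4 genes the tdTneg SCA-1+ libraries did not overlap with the tdT+ SCA-1+ libraries. The tdT+ SCA-1+ and tdT+ bulge libraries overlapped for Cd74, H2-Aa and H2-Eb1 and were apart for H2-Ab1. Bulge libraries of the different tdT states were apart for Cd74 and H2-Aa and overlapped for H2-Ab1 and H2-Eb1. In a bulk sample, fewer cells that express a gene and less RNA of it per cell cannot be told apart.

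**Figure D1:**
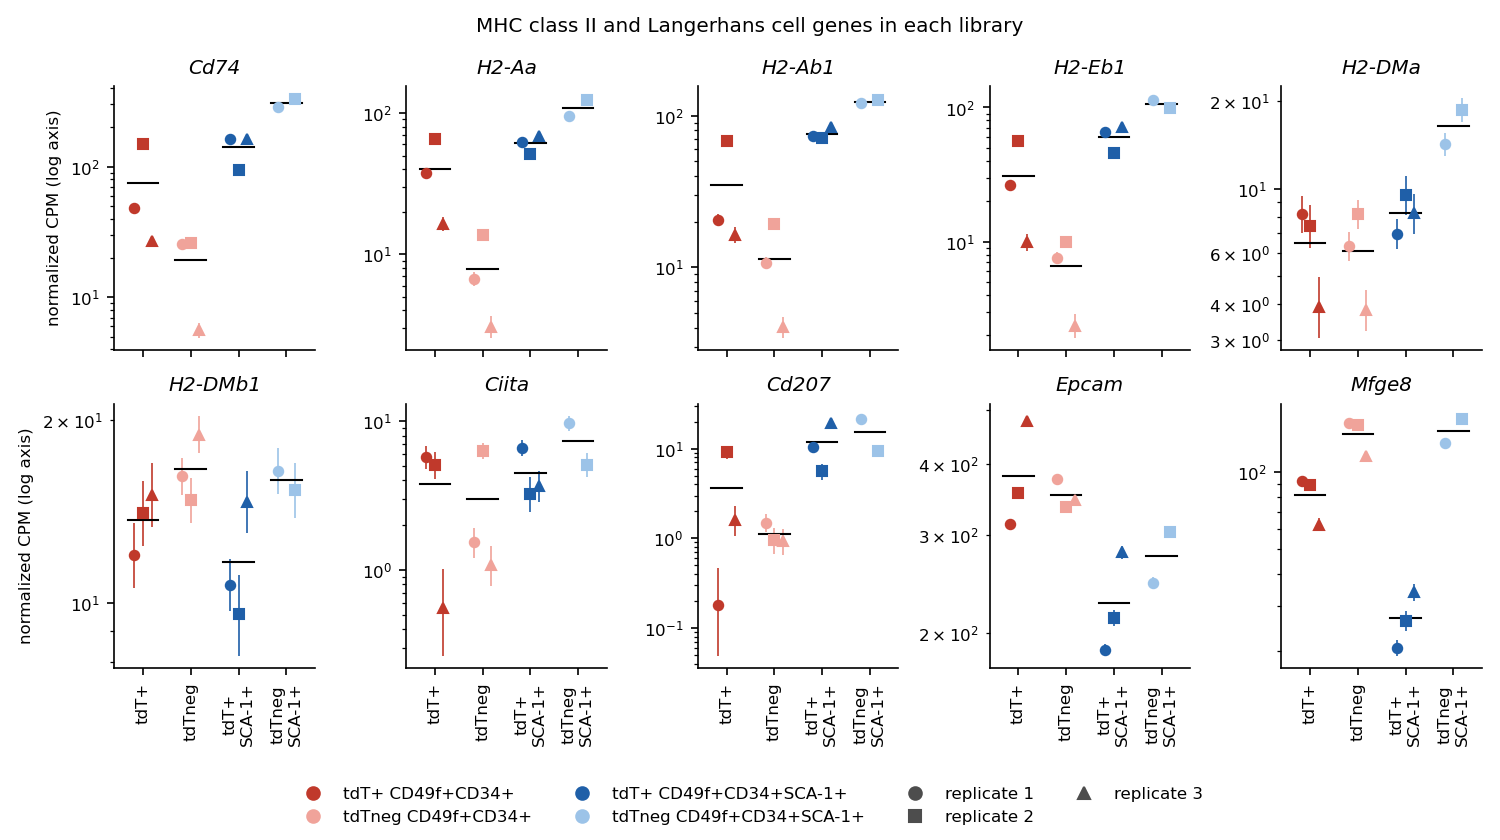
Normalized CPM (log axis) of the 10 genes in the 11 libraries by sorted group, with a symbol per replicate number, 95% exact counting intervals as vertical lines and the group mean as a horizontal line. Cd74, H2-Aa, H2-Ab1 and H2-Eb1 follow 1 pattern over the groups, from 3.07 to 123 CPM for H2-Aa, while H2-DMb1 stays between 9.60 and 19.0 CPM and Mfge8 is lowest in tdT+ SCA-1+ libraries (20.6 to 33.9 CPM).

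The chaperone and coactivator genes were low, and their group means varied less, while Ciita varied widely within groups. H2-DMa was at 3.91 to 8.16 CPM in tdT+ bulge, 3.81 to 8.14 CPM in tdTneg bulge and 6.98 to 9.48 CPM in tdT+ SCA-1+ libraries, and at 14.2 and 18.7 CPM in the tdTneg SCA-1+ libraries, which lay above all others. H2-DMb1 was between 9.60 CPM (tdT+ SCA-1+ replicate 2) and 19.0 CPM (tdTneg bulge replicate 3), so that the chain that pairs with H2-DMa did not share its order of groups. Ciita was at 5.71, 5.09 and 0.551 CPM in tdT+ bulge, 1.53, 6.34 and 1.07 CPM in tdTneg bulge, 6.61, 3.24 and 3.66 CPM in tdT+ SCA-1+ and 9.71 and 5.11 CPM in tdTneg SCA-1+ libraries. Neighbouring groups in the order of Ciita means overlapped throughout, and the lowest value rested on 10 counts. Per length, Ciita had 0.0578 to 1.02 RPKM and H2-DMa 1.10 to 5.43 RPKM, against 3.34 to 195 RPKM for Cd74.

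Langerin was present at low level in every library. Cd207 was at 0.181, 9.05 and 1.60 CPM in tdT+ bulge, 1.49, 0.952 and 0.927 CPM in tdTneg bulge, 10.4, 5.57 and 19.1 CPM in tdT+ SCA-1+ and 21.4 and 9.34 CPM in tdTneg SCA-1+ libraries. Every SCA-1+ library lay above every bulge library except the library labelled tdT+ bulge replicate 2. The lowest value, in tdT+ bulge replicate 1, rested on 4 counts, with a 95% exact interval of 0.0494 to 0.464 CPM that covers counting error only, and this library had 133 CPM in the sum of Cd74, H2-Aa, H2-Ab1 and H2-Eb1.

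Epcam and Mfge8 did not follow the class II genes or langerin. Epcam was at 313, 355 and 478 CPM in tdT+ bulge, 377, 336 and 346 CPM in tdTneg bulge, 187, 213 and 279 CPM in tdT+ SCA-1+ and 246 and 304 CPM in tdTneg SCA-1+ libraries, and every bulge library lay above every SCA-1+ library. Per length its level was 85.1 to 218 RPKM, above the highest level of Cd207 (14.1 RPKM) in every library. Mfge8 was at 92.5, 89.0 and 62.3 CPM in tdT+ bulge, 155, 153 and 116 CPM in tdTneg bulge, 20.6, 26.3 and 33.9 CPM in tdT+ SCA-1+ and 130 and 161 CPM in tdTneg SCA-1+ libraries. Within each sorted population the tdT+ libraries were lower than the tdTneg libraries without overlap, and the tdT+ SCA-1+ libraries were lowest of all.

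The comparison of SCA-1+ with bulge cells, averaged over tdT status, asked how the class II and Langerhans genes differ between these gates. The sorted libraries also held leukocyte and endothelial transcripts to differing degrees, as given below. The 4 classical class II genes and langerin were higher in SCA-1+ cells, 4.62-fold for H2-Aa to 6.65-fold for Cd207. Called means here a Benjamini-Hochberg adjusted p under 0.05 over all genes tested and an absolute log2 fold change over 1 in edgeR's quasi-likelihood test, and 5 of the 10 genes were called higher and none lower, where 4.77% of all 20307 genes tested were called higher and 6.79% lower. The log2 fold change was 2.45 for Cd74 (SE 0.493, adjusted p = 0.0077), 2.21 for H2-Aa (SE 0.410, adjusted p = 0.0051), 2.29 for H2-Ab1 (SE 0.443, adjusted p = 0.0064) and 2.49 for H2-Eb1 (SE 0.452, adjusted p = 0.0045). These genes encode the surface molecule and its invariant chain, and their calls held without any single library and with the replicate number as a block. Cd207 had a log2 fold change of 2.73 (SE 0.757, adjusted p = 0.0326), and its call was lost with the replicate number as a block (adjusted p = 0.0565). It was also lost without any 1 of 8 of the 11 libraries, with adjusted p up to 0.138, the highest without tdTneg SCA-1+ replicate 1.

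The other 5 genes moved less. H2-DMa (log2 fold change 0.89, SE 0.276, adjusted p = 0.0488), Epcam (-0.56, SE 0.151, adjusted p = 0.0300) and Mfge8 (-0.78, SE 0.167, adjusted p = 0.0106) passed the adjusted p in the edgeR test and missed the fold. Epcam and Mfge8 were thus lower in SCA-1+ cells while the 4 classical class II genes were higher, and for Mfge8 this came from tdT+ cells, since within tdTneg cells its means were 145.6 CPM in SCA-1+ and 141.6 CPM in bulge cells. Ciita (0.78, 95% interval -0.63 to 2.20, adjusted p = 0.422) and H2-DMb1 (-0.15, 95% interval -0.53 to 0.23, adjusted p = 0.586) did not pass in the same fit. The interval of H2-DMb1 lies below the intervals of the 4 classical genes, the lowest bound of which is 1.30. The libraries of both populations did not overlap for H2-Ab1, higher in SCA-1+ cells as for 5.1% of all genes, and for Epcam, lower as for 5.67%. Without the library labelled tdT+ bulge replicate 2, the same 5 genes were called higher, where 5.69% of all genes were called higher and 5.57% lower. Their log2 fold changes were larger, 2.94 for Cd74 and 3.75 for Cd207. Among the tdTneg libraries alone, where that library plays no part in the means, 4 genes were called.

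**Figure D2:**
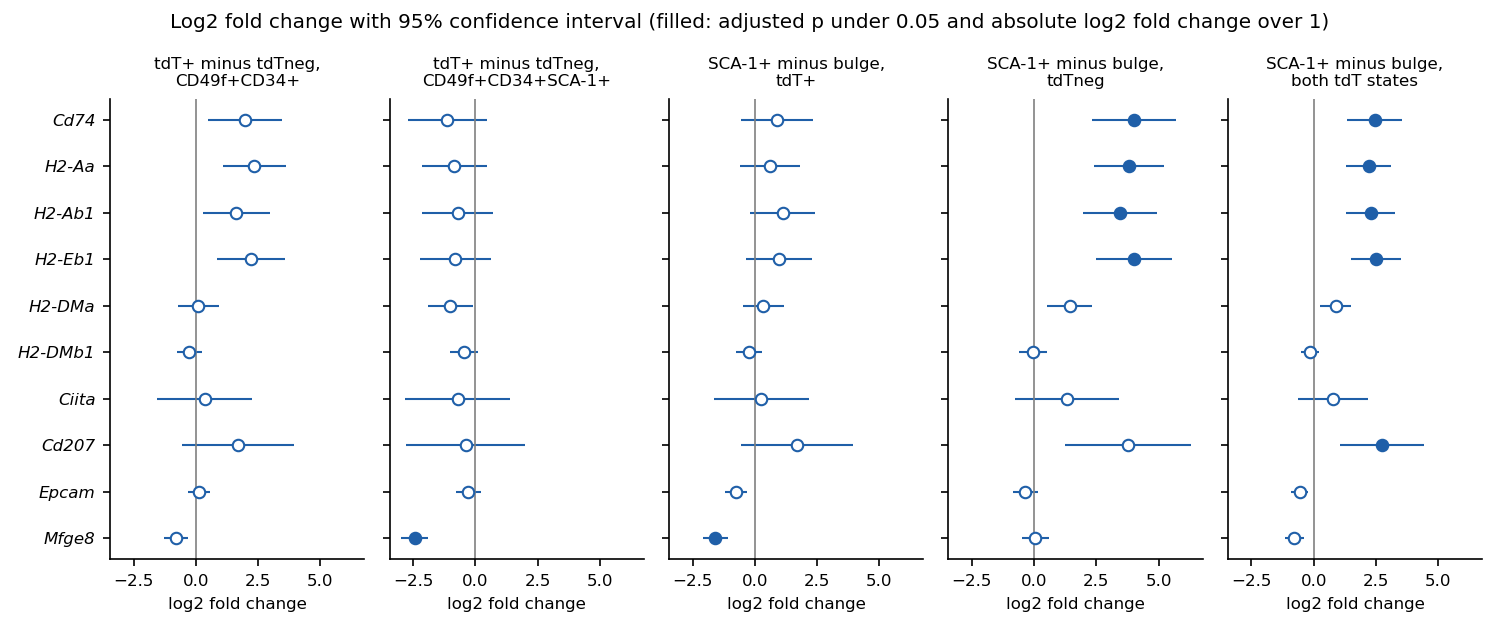
Log2 fold change (horizontal axis) with its 95% confidence interval for each of the 10 genes in 5 comparisons of the edgeR fit, with filled points for genes called. The classical class II genes are filled in the comparison within tdTneg cells (3.45 to 4.0) and over both tdT states (2.21 to 2.49), and Mfge8 is the filled point among tdT+ comparisons.

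Within tdTneg cells the difference was steep. The 4 classical genes were higher in SCA-1+ than in bulge cells by 10.9-fold (H2-Ab1), 13.95-fold (H2-Aa), 15.97-fold (Cd74) and 16.04-fold (H2-Eb1), and 4 of the 10 genes were called higher and none lower, against 3.29% higher and 1.45% lower among all genes. The log2 fold changes were 4.0 for Cd74 (SE 0.753, adjusted p = 0.0170), 3.80 for H2-Aa (SE 0.625, adjusted p = 0.0112), 3.45 for H2-Ab1 (SE 0.667, adjusted p = 0.0188) and 4.0 for H2-Eb1 (SE 0.689, adjusted p = 0.0127). For each the libraries of the groups did not overlap, as was so for 19.9% of all genes in that direction. Cd207 (log2 fold change 3.77, adjusted p = 0.0874) and H2-DMa (1.43, adjusted p = 0.0716) did not pass in edgeR, also with no overlap. DESeq2 called both, Cd207 with 3.86 (adjusted p = 0.0011) and H2-DMa with 1.51 (adjusted p = 0.0042), and edgeR called Cd207 as well with a minimum of 1 count in any library or with only the groups compared, and H2-DMa with a minimum of 10 counts in every library. EdgeR also called Cd207 without the library labelled tdT+ bulge replicate 2 (3.77, adjusted p = 0.0314) and without tdT+ bulge replicate 1 (3.77, adjusted p = 0.0271). Without tdT+ bulge replicate 3 it called H2-DMa (1.43, adjusted p = 0.0382). The log2 fold changes of Ciita (1.31), H2-DMb1 (-0.06), Epcam (-0.36) and Mfge8 (0.04) had adjusted p of 0.396 to 0.952. Only 2 libraries make up the tdTneg SCA-1+ group, and the count of called genes was 0 without its replicate 1, where the 4 genes kept log2 fold changes of 3.47 to 4.08 with adjusted p of 0.0677 to 0.107 in edgeR. It was 2, H2-Aa and H2-Eb1, without its replicate 2 and also without tdTneg bulge replicate 3, and 3 without tdTneg bulge replicate 1.

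Within tdT+ cells no class II gene was called, and Mfge8 fell 3.02-fold from bulge to SCA-1+ cells. Mfge8 (log2 fold change -1.59, SE 0.225, adjusted p = 0.0021) was the only gene of the 10 called, against 5.54% lower and 2.91% higher among all genes. Epcam was lower without reaching the fold (-0.75, SE 0.201, adjusted p = 0.0368), and the libraries of both populations did not overlap for either gene, as for 15% of all genes in that direction. For the classical genes the log2 fold changes were 0.61 to 1.12 with adjusted p from 0.226 to 0.478, and for Cd207 1.70 (adjusted p = 0.284). H2-DMa (0.34), Ciita (0.25) and H2-DMb1 (-0.23) did not pass either (adjusted p of 0.524 to 0.875). These values rested on the library labelled tdT+ bulge replicate 2. Without it 3 genes were called, H2-Ab1 higher (2.05, adjusted p = 0.0401), Cd207 higher (3.72, adjusted p = 0.0398) and Mfge8 lower (-1.53, adjusted p = 0.0070), where 3.29% of all genes were called higher and 4.82% lower.

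The comparison of tdT+ with tdTneg SCA-1+ cells asked what goes with a history of Cd4-driven Cre in this population. Mfge8 was 5.41-fold lower in tdT+ cells (log2 fold change -2.44, SE 0.245, adjusted p = 0.0013), and it was the only gene of the 10 called, against 2.06% lower and 0.251% higher among all genes. This call held without any single library, with adjusted p of at most 0.0125. The groups also differed in other transcripts. The sum of 4 endothelial genes was 1307 and 1388 CPM in tdTneg SCA-1+ and 24.4 to 52.9 CPM in tdT+ SCA-1+ libraries, and Cd34 differed as given above. The part of these differences in the Mfge8 difference was not tested. All 10 fitted fold changes were below 0. H2-DMa (-1.0, 95% interval -1.91 to -0.10, adjusted p = 0.288) and Cd74 (-1.13, 95% interval -2.70 to 0.45, adjusted p = 0.534) did not pass in edgeR, nor did H2-Aa, H2-Ab1 and H2-Eb1 (-0.85 to -0.70). Ciita (-0.72), H2-DMb1 (-0.45), Cd207 (-0.39) and Epcam (-0.28) had adjusted p of 0.471 to 0.935. The libraries of the tdT states did not overlap for 7 of the 10 genes, all lower in tdT+ cells, as for 17.2% of all genes in that direction and 33% in either, in a group of 3 against a group of 2. When only these 5 libraries were fitted, Cd74 was called as well (-1.17).

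In the bulge, the 4 classical class II genes had higher mean levels in tdT+ than in tdTneg cells, and H2-DMb1 had a lower one (13.7 against 16.6 CPM). No gene of the 10 was called by edgeR, where 0.00985% of all genes (2 genes) were called. At an unadjusted p under 0.05, 4 were higher (Cd74, H2-Aa, H2-Ab1 and H2-Eb1) and Mfge8 was lower, against 4.56% higher and 3.86% lower among all genes. The fitted log2 values were 2.34 for H2-Aa (SE 0.565, adjusted p = 0.241), 2.21 for H2-Eb1 (SE 0.616, adjusted p = 0.351), 1.96 for Cd74 (SE 0.667, adjusted p = 0.465), 1.63 for H2-Ab1 (SE 0.596, adjusted p = 0.504) and -0.80 for Mfge8 (SE 0.220, adjusted p = 0.333). DESeq2, run on all 11 libraries, called 3 of them, H2-Aa, H2-Eb1 and Cd74, among 377 of 40782 genes. In the same DESeq2 test 7 of 11 T cell genes (Cd3d, Cd3e, Cd3g, Trac, Trdc, Cd2 and Il2rb) and the leukocyte genes Itgam, Cx3cr1 and Runx3 were called higher as well, while edgeR called 0 of the 11 T cell genes, with 8 at an unadjusted p under 0.05. The other members had fitted log2 values of 1.68 (Cd207), 0.35 (Ciita), 0.11 (Epcam), 0.10 (H2-DMa) and -0.28 (H2-DMb1). Part of the size came from the library labelled tdT+ bulge replicate 2. Without it the log2 values were 1.78 for H2-Aa (adjusted p = 0.507), 1.46 for H2-Eb1 (adjusted p = 0.629), 0.98 for Cd74 (adjusted p = 0.752) and 0.70 for H2-Ab1 (adjusted p = 0.800), and that of Cd207 went from 1.68 to -0.35. The libraries did not overlap for 3 of the 10 genes, Cd74 and H2-Aa higher and Mfge8 lower in tdT+ cells, as for 16% of all genes.

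The difference between SCA-1+ and bulge cells in the effect of tdT was tested in the same fit, and none of the 10 genes was called by edgeR, against 0.389% of all genes. At an unadjusted p under 0.05, 5 genes had a lower tdT+ to tdTneg ratio in SCA-1+ cells, against 7.63% of all genes. They were the 4 classical genes (Cd74 -3.09, SE 0.966, adjusted p = 0.221, and H2-Aa -3.19, SE 0.808, adjusted p = 0.143, and with H2-Ab1 at -2.33 and H2-Eb1 at -3.02) and Mfge8 (-1.63, SE 0.327, adjusted p = 0.0717). DESeq2 called 4 of these, H2-Aa, H2-Eb1, Cd74 and Mfge8, among 845 of 40782 genes. Without the library labelled tdT+ bulge replicate 2 the edgeR values were -2.11 for Cd74, -2.63 for H2-Aa, -2.26 for H2-Eb1, -1.40 for H2-Ab1 and -1.56 for Mfge8, with adjusted p of 0.141 to 0.505. The other members had values of -2.07 (Cd207), -1.10 (H2-DMa), -1.06 (Ciita), -0.39 (Epcam) and -0.17 (H2-DMb1) over all libraries. The sign of the tdT difference thus went from above 0 in the bulge to below 0 in SCA-1+ cells for the classical genes in the fitted values, and for Mfge8 it was below 0 in both.

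The shares of the classical class II genes in their sum varied at most 2.13-fold over the libraries, while the sum varied 44.7-fold. The sum of Cd74, H2-Aa, H2-Ab1 and H2-Eb1 was 133, 338 and 69.5 CPM in tdT+ bulge, 50.5, 69.1 and 15.1 CPM in tdTneg bulge, 362, 263 and 388 CPM in tdT+ SCA-1+ and 615 and 675 CPM in tdTneg SCA-1+ libraries. Cd74 made up 36.0% to 50.6% of it in every library, H2-Aa 13.2% to 28.3%, H2-Ab1 15.4% to 27.9% and H2-Eb1 14.2% to 19.9%. The ratio of H2-Aa to H2-Ab1 in CPM was 0.627 to 0.997 in 10 libraries and 1.83 in tdT+ bulge replicate 1, which also had the least Cd207 for its class II level. Cd207 came to 0.136 CPM per 100 CPM of the sum in that library and to 1.38 to 6.15 in the others. In libraries whose sum lay close, 615 and 675 CPM in the tdTneg SCA-1+ group, Cd207 differed more, 21.4 against 9.34 CPM.

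As a description over the 11 libraries, which share the groups and the gates, Pearson correlations of log2 CPM were 0.97 to 0.99 among the 4 classical genes. With these 4 genes the correlation was 0.78 to 0.81 for H2-DMa, 0.68 to 0.72 for Ciita, 0.68 to 0.81 for Cd207, -0.45 to -0.36 for H2-DMb1, -0.61 to -0.54 for Epcam and -0.33 to -0.26 for Mfge8. Of all genes tested outside the 10, those most like Cd74 were Uba7 (r = 0.98, an enzyme that activates the ubiquitin-like protein ISG15), Sp110 (0.97), Sema7a (0.96), Hlx (0.96) and Bcl3 (0.96). Those most like Epcam were Kifc3 (0.97), Abtb2 (0.97), Fst (0.96, the activin antagonist follistatin), Fstl4 (0.96) and Slc18a3 (0.95). Those most like Mfge8 were Col4a2 (0.97, a basement membrane collagen), Aebp1 (0.96), Pdlim7 (0.96), Col4a1 (0.96) and Tmem200b (0.96). These lists share no gene, which follows from the correlations of the 3 genes with each other. They were -0.55 for Cd74 with Epcam, -0.26 for Cd74 with Mfge8 and 0.59 for Epcam with Mfge8.

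**Figure D3:**
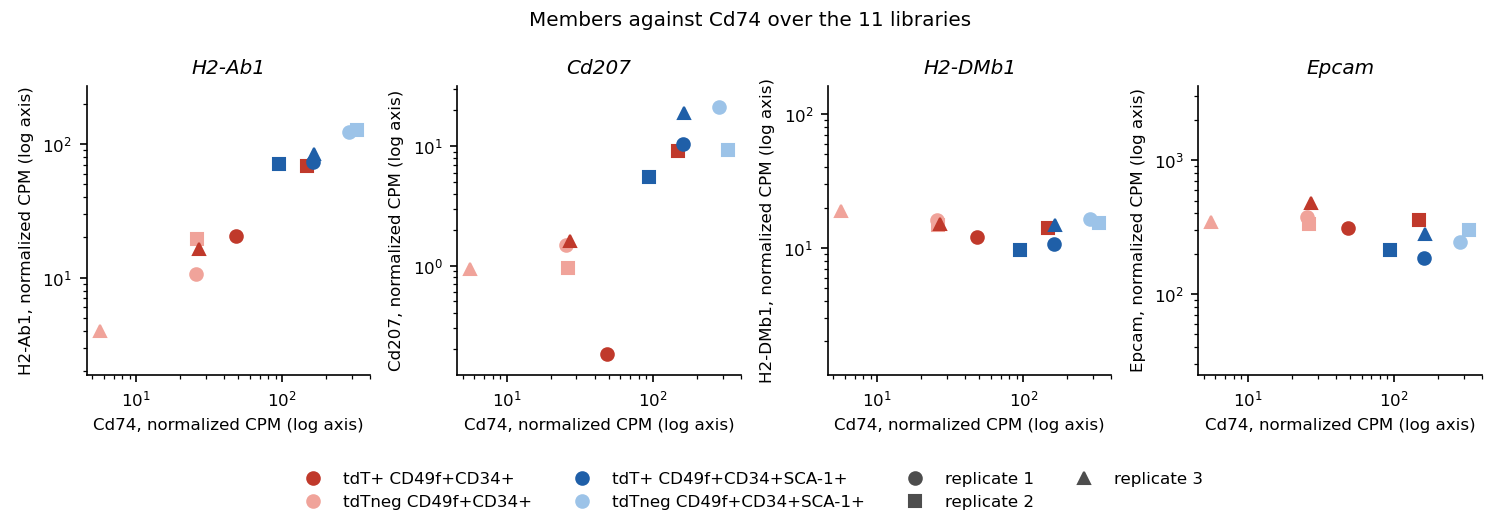
Normalized CPM of H2-Ab1, Cd207, H2-DMb1 and Epcam (vertical, log axis) against that of Cd74 (horizontal, log axis) in the 11 libraries, coloured by sorted group. H2-Ab1 rises with Cd74 in every group, Cd207 lies apart in tdT+ bulge replicate 1 (0.181 CPM at 48.4 CPM of Cd74), and H2-DMb1 (9.60 to 19.0 CPM) and Epcam (187 to 478 CPM) span less than Cd74 does (5.61 to 327 CPM).

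Of 16 other genes of the class II pathway, from peptide-cutting cathepsins to the promoter factors of the X and Y boxes, 15 were tested, and H2-Eb2 was not. In SCA-1+ against bulge cells 0 were called higher by edgeR (0 also at an unadjusted p under 0.05 and by DESeq2) and 1 lower, Ctsl (cathepsin L, log2 fold change -1.10, adjusted p = 0.0065), which was also the only one called within tdT+ cells (-1.78, adjusted p = 0.0038). At an unadjusted p under 0.05, 3 of the 15 were lower in SCA-1+ than in bulge cells. The median log2 fold change of the list was 0.12, against -0.09 over all genes tested. Rfx5, which binds the X box, was at 27.1 to 47.9 CPM in all libraries and Nfya, of the Y box factor, at 40.7 to 75.7 CPM. Rfxank, another promoter factor of the list, was at 12.8 to 18.3 CPM in bulge and 6.25 to 13.0 CPM in SCA-1+ libraries. Without the library labelled tdT+ bulge replicate 2 its log2 fold change was -0.80 (edgeR adjusted p = 0.0395), which missed the fold. The expression of these promoter factors thus covered a far narrower range than that of Cd74. In both tdT comparisons and in the difference between them none of the 15 genes was called by edgeR, with 3 in the bulge, 3 in SCA-1+ cells and 5 for the difference at an unadjusted p under 0.05, and 0, 1 and 2 by DESeq2. Those that DESeq2 called were the endopeptidase Lgmn, lower in tdT+ SCA-1+ cells, and Lgmn and Ctsl for the difference. Within tdTneg cells edgeR called 0 of the 15, with 5 at an unadjusted p under 0.05, and DESeq2 called Lgmn higher in SCA-1+ cells. Without the library labelled tdT+ bulge replicate 2, edgeR called Lgmn higher there (1.89, adjusted p = 0.0416) and lower in tdT+ than in tdTneg SCA-1+ cells (-2.02, adjusted p = 0.0498).

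Genes of the interferon gamma pathway, the cytokine known as the main inducer of Ciita outside dendritic cells, were followed on a list of 13. In SCA-1+ against bulge cells 3 were called higher and none lower by edgeR: Ifng itself (log2 fold change 3.44, adjusted p = 0.0179), its receptor chain Ifngr1 (1.61, adjusted p = 0.0007) and the induced GTPase Gbp2 (1.49, adjusted p = 0.0202). Ifng was at 3.30 to 13.97 CPM in tdT+ SCA-1+ libraries and at or below 0.665 CPM in all others. Gbp2 was at 103 and 75.1 CPM in the tdTneg SCA-1+ libraries, where Cd74 was highest, and at 29.8 to 68.0 CPM in the tdT+ SCA-1+ libraries. The median log2 fold change of the list was 0.66, against -0.09 over all genes tested. Of 5 genes of costimulation and inhibition of T cells, edgeR called 1 higher in SCA-1+ cells, Cd274 (PD-L1, log2 fold change 2.03, adjusted p = 0.0042), with 2.41 to 11.2 CPM in bulge and 12.8 to 23.5 CPM in SCA-1+ libraries. DESeq2 called Cd80 and Cd86 as well, and edgeR called Cd86 (3.46, adjusted p = 0.0252) without the library labelled tdT+ bulge replicate 2.

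Markers of other cells that carry class II were set beside these levels. Ptprc (CD45) was at 27.3 to 52.0 CPM in tdT+ bulge, 1.61 to 19.5 CPM in tdTneg bulge, 141 to 229 CPM in tdT+ SCA-1+ and 40.4 and 58.5 CPM in tdTneg SCA-1+ libraries. It was higher in SCA-1+ cells over both tdT states (log2 fold change 2.42, adjusted p = 0.0162), as were Itgam (2.84, adjusted p = 0.0322) and Fcer1g (2.80, adjusted p = 0.0173) on a list of 18 genes of Langerhans and other myeloid cells, of which edgeR called 4 higher and 0 lower. DESeq2 called 6 higher, among them Cx3cr1 and Ccr7, and 8 within tdTneg cells. Without the library labelled tdT+ bulge replicate 2, edgeR called 5 higher, Cx3cr1 with the largest log2 fold change (3.87, adjusted p = 0.0027). Over the 11 libraries the correlation of log2 CPM with the 4 classical genes was 0.76 to 0.86 for Ptprc, 0.73 to 0.77 for Csf1r, 0.70 to 0.78 for C1qa, 0.69 to 0.75 for Cd3e and 0.64 to 0.71 for Pecam1. In tdT+ against tdTneg SCA-1+ cells, 13 of the 18 Langerhans and myeloid genes had fitted values below 0 and 5 above (median -1.09). All 7 genes of a macrophage and monocyte list were below 0 there (median -1.73), against a median of 0.04 over all genes. EdgeR called 1 of the 18 higher, and 0 of the 7. Between the SCA-1+ groups Ptprc and the class II sum did not have the same order. Ptprc came to 38.8 to 87.0 CPM per 100 CPM of the sum in tdT+ SCA-1+ libraries and to 6.56 and 8.67 in tdTneg SCA-1+ libraries. The T cell gene Cd3e was at 47.1 to 117 CPM in the former and at 9.78 and 12.6 CPM in the latter, and 10 of 11 T cell genes were called higher in SCA-1+ than in bulge cells, Cd2 (4.45), Cd3e (4.04) and Cd3g (3.98) with the largest log2 fold changes. In tdT+ against tdTneg SCA-1+ cells edgeR called 5 of the 11 T cell genes higher, led by Trac (4.11), Cd3d (3.70) and Cd2 (3.08, with an adjusted p of 0.0522 without the library labelled tdT+ bulge replicate 2), where Cd74, H2-Aa, H2-Ab1 and H2-Eb1 had fitted values below 0 that did not pass.

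Macrophage genes marked particular libraries. Csf1r, the receptor shared by Langerhans cells and macrophages, was at 33.4 and 69.3 CPM in tdT+ bulge replicates 1 and 2, at 31.7 CPM in tdTneg bulge replicate 2 and at 92.9 CPM in tdTneg SCA-1+ replicate 2, and at 0.276 to 18.7 CPM in the other 7 libraries. The summed level of 7 macrophage and monocyte genes was 9.09 to 203 CPM in tdT+ bulge, 6.96 to 77.5 CPM in tdTneg bulge, 25.2 to 120.2 CPM in tdT+ SCA-1+ and 69.6 and 461 CPM in tdTneg SCA-1+ libraries, and 0 of the 7 were called by edgeR in any comparison. In SCA-1+ against bulge cells and within tdTneg cells 2 of them had an unadjusted p under 0.05, DESeq2 called Cd14 and Cd68 higher in both comparisons, and edgeR did as well without the library labelled tdT+ bulge replicate 2 (within tdTneg cells 3.48 for Cd14, adjusted p = 0.0297, and 3.22 for Cd68, adjusted p = 0.0336). For the difference in the effect of tdT 2 had an unadjusted p under 0.05 and DESeq2 called Cd14 lower. The B cell markers Cd79a and Ms4a1 were at most 0.952 and 0.568 CPM in any library, and of 4 B cell genes 2 were tested and 0 were called by edgeR in any comparison, 0 also at an unadjusted p under 0.05 and by DESeq2. The dendritic cell integrin Itgax was at 0 to 7.34 CPM. Of 4 melanocyte genes, Dct (log2 fold change -1.99, adjusted p = 0.0264) and Tyrp1 (-1.60, adjusted p = 0.0462) were called lower in SCA-1+ than in bulge cells by edgeR, and Tyrp1 was no longer called without the library labelled tdT+ bulge replicate 2 (adjusted p = 0.0554). In the endothelial list of 4 genes the sum was 1307 and 1388 CPM in the tdTneg SCA-1+ libraries, 339 CPM in the library labelled tdT+ bulge replicate 2 and at most 66.5 CPM in all others, and Tek was called lower in tdT+ than in tdTneg SCA-1+ cells (log2 fold change -4.85, adjusted p = 0.0453) by edgeR. Without the library labelled tdT+ bulge replicate 2, edgeR called 3 of the 4 lower there, Pecam1 (-4.89, adjusted p = 0.0055), Cdh5 (-5.22, adjusted p = 0.0299) and Tek, and called Pecam1 (4.36) and Cdh5 (3.14) higher in SCA-1+ than in bulge cells. The 2 libraries with the highest class II sum were thus also those with the highest endothelial sum. The part of leukocytes, macrophages or endothelial cells in the class II levels was not tested.

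**Figure D4:**
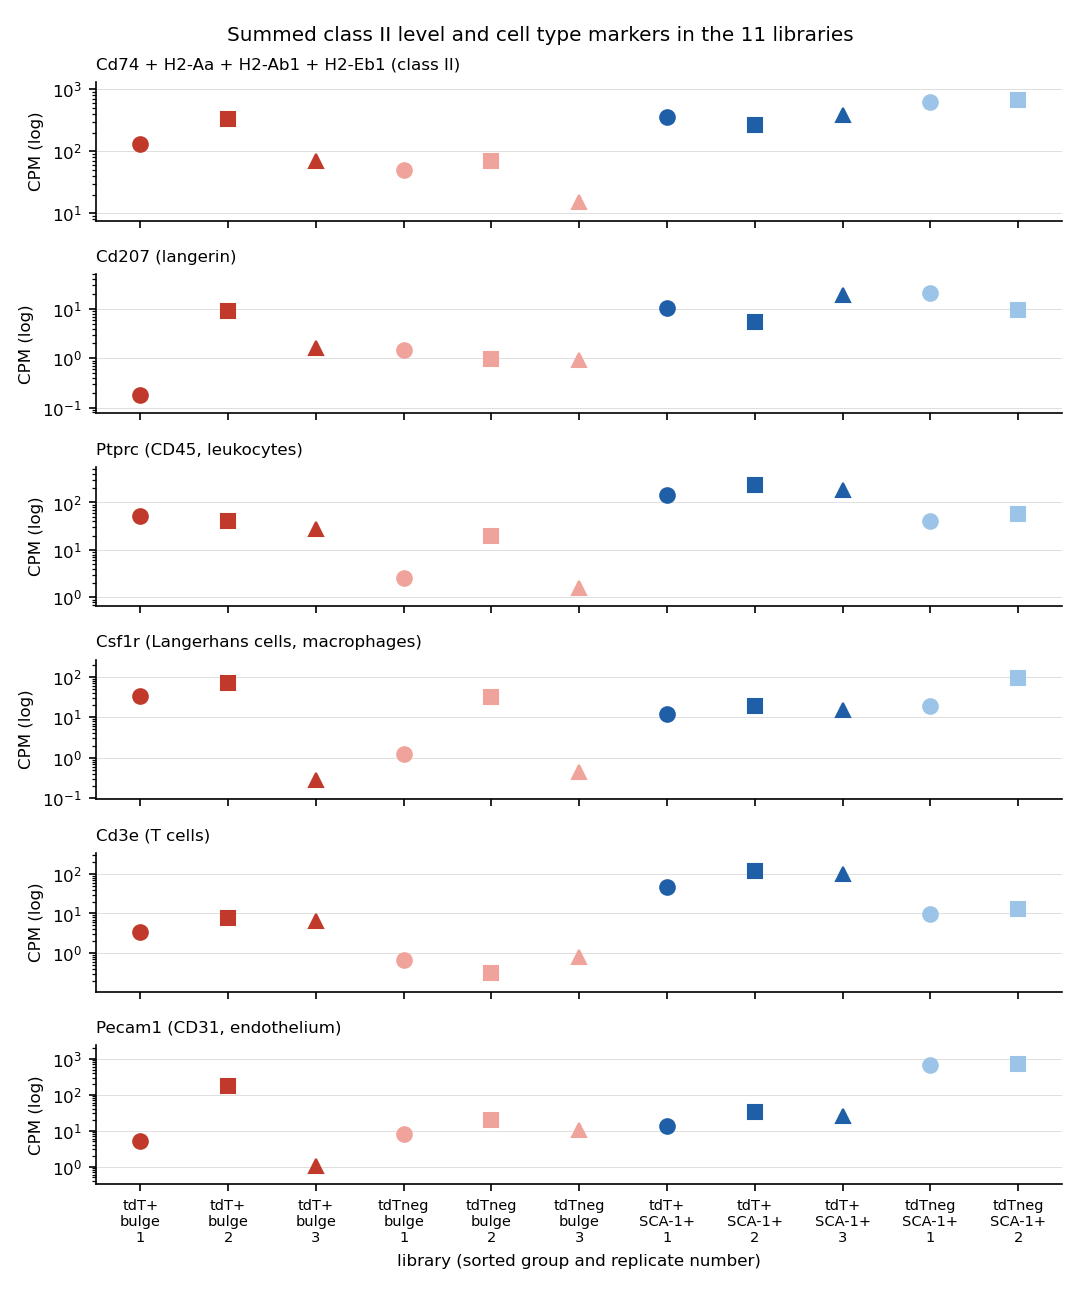
CPM (log axes) in each of the 11 libraries, from top to bottom, of the sum of Cd74, H2-Aa, H2-Ab1 and H2-Eb1, and of Cd207, Ptprc, Csf1r, Cd3e and Pecam1. The class II sum is highest in the tdTneg SCA-1+ libraries (615 and 675 CPM), as is Pecam1 (688 and 728 CPM), while Ptprc (141 to 229 CPM) and Cd3e (47.1 to 117 CPM) are highest in the tdT+ SCA-1+ libraries.

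Among partners of Epcam and Mfge8, the integrin chains Itgav, Itgb3 and Itgb5, which form receptors that bind Mfge8, and the claudins Cldn1 and Cldn7, known as partners of Epcam, were not called by edgeR or DESeq2 in any comparison. In SCA-1+ against bulge cells 2 of these 5 genes had an unadjusted p under 0.05. They were Itgb5 (log2 fold change -0.47, adjusted p = 0.0314 in edgeR), which passed the adjusted p and missed the fold, and Cldn1 (0.57, adjusted p = 0.0948), which did not pass. Itgav was at 126 to 213 CPM in all libraries, a narrower range than the 20.6 to 161 CPM of Mfge8.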

How the data were processed

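Total RNA of FACS-sorted EBS cells was sequenced in 11 libraries of 4 groups, grouped by the labels. The authors prepared TruSeq RNA v2 libraries, sequenced them on an Illumina HiSeq, aligned reads to mm10 with STAR and Ensembl 96 and counted reads per gene with featureCounts, and the deposited counts are whole, unnormalized read counts per gene. The strand setting is not given in the sources used here. A row outside the Ensembl genes (2.05 to 307 CPM without TMM scaling) was left out of library sizes and tests.

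Symbols and positions came from the matching annotation, for all 55536 genes. Counts were filtered (filterByExpr), scaled by TMM and fitted with edgeR 4.0.16 (quasi-likelihood test, R 4.3.3) with 1 mean per group over all 11 libraries. P-values were adjusted over all 20307 genes tested, and a gene was called where its adjusted p was under 0.05 and its log2 fold change exceeded 1 in size. These p-values measure the spread between libraries. Library totals of 17409131 to 46542177 counts set the counting precision, and intervals of CPM cover counting error only, while those of log2 fold changes come from the fit.

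Genes of 11 further lists were read from the same fit. Not every gene of these lists is reported here. The 10 genes and the lists were chosen with earlier results of these data known. By rule, the text names all 10 in every comparison, the genes called on the further lists (at most 3 in each direction, by fold), defining markers, and the 5 genes most correlated with Cd74, Epcam and Mfge8. Other genes were named after their values were seen. On simulated counts with 200 genes changed 4-fold, the fit recovered 71%, 59.5% and 89.5% of them for tdT in bulge, tdT in SCA-1+ and the populations. The changed genes were drawn from those above a minimum mean level. Simulated counts followed the spread of the fit, with no library of doubtful label. These shares thus need not hold for weakly expressed genes such as Ciita or for the tdT comparison in the bulge.

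Replicate numbers were read as shared pools of mice, since the study describes 3 replicates of 2 mice each and ages match the numbers. Same-numbered libraries of different groups had a median correlation of deviations of 0.08 over 15 pairs (-0.42 to 0.59), against -0.02 over the other 30 pairs. Alternatives were DESeq2 1.42.0, RLE factors, other filters (at least 1 count in any library, at least 10 in every library), the replicate block, a fit of only the groups compared, no fold threshold and leaving out each library.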

Additional observations from a re-analysis of the deposited data

Results flagged for a closer look

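A signal outside the genes analysed above was flagged because it exceeded its level in the tdTneg libraries. The row of the files that is no Ensembl gene had 133.29 CPM (without TMM scaling, as for all values of this row) in the lowest of the 5 tdT+ libraries that lay above every tdTneg library, up to 307 CPM in the highest of them, and 2.54 to 4.89 CPM in the 5 tdTneg libraries. In the library labelled tdT+ bulge replicate 2 it was at 2.05 CPM (37 counts), below all tdTneg libraries. In that library Cd74 was at 148 CPM and Cd207 at 9.05 CPM, both the highest of the bulge libraries. The cause was not tested.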

How the results depend on the processing

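With the replicate number as a block, the count of genes called in SCA-1+ against bulge cells went from 5 to 4, since Cd207 (log2 fold change 2.85) was lost, and no other call among the 10 genes changed. In that fit H2-DMb1 within tdTneg cells turned to 0.0602 and Mfge8 to -0.001. H2-DMb1 within tdTneg cells also turned sign with DESeq2 (0.0227), RLE factors (0.0221) and a minimum of 10 counts in every library (0.0258), all near 0. Genes called for tdT in the bulge went from 0 to 3 with DESeq2 and to 2 with a minimum of 1 count in any library, those for tdT in SCA-1+ cells from 1 to 2 in a fit of only the groups compared, and those for the difference in the effect of tdT from 0 to 4 with DESeq2, 4 with a minimum of 1 count and 1 with a minimum of 10. DESeq2 and the lower minimum count tested more genes (40782 and 41302) than the fit above, and the cause of these changes was not tested. With a minimum of 1 count, 166 of all 41302 genes were called for tdT in the bulge and 568 for the difference in the effect of tdT. A minimum of 10 gave 263 of 12633 for that difference. The fit of only the groups compared gave 885 of 17392 for tdT in SCA-1+ cells. Over all genes, DESeq2 called 377 for tdT in the bulge, 1230 for tdT in SCA-1+ cells, 3540 for SCA-1+ against bulge cells, 3423 within tdT+, 2162 within tdTneg and 845 for the difference in the effect of tdT, against 2, 470, 2347, 1715, 963 and 79 by edgeR. Without the fold threshold 8 genes passed in SCA-1+ against bulge cells and 2 within tdT+ cells. The share of all genes that passed without that threshold was not computed, so nothing is read from these counts. Leaving out single libraries gave 4 to 5 genes called for SCA-1+ against bulge cells, 1 to 3 within tdT+ cells (3 without the library labelled tdT+ bulge replicate 2), 0 to 5 within tdTneg cells (0 without tdTneg SCA-1+ replicate 1) and 0 to 2 for the difference in the effect of tdT (2, H2-Aa and Mfge8, without tdT+ bulge replicate 3). Fitted values that turned sign in these omissions ranged for tdT in the bulge from -0.15 to 0.37 for H2-DMa, -0.0798 to 1.54 for Ciita, -0.35 to 2.24 for Cd207 and -0.0807 to 0.24 for Epcam. For tdT in SCA-1+ cells Cd207 ranged from -0.94 to 0.32, within tdT+ cells Ciita from -0.26 to 0.68, and within tdTneg cells H2-DMb1 from -0.14 to 0.0416 and Mfge8 from -0.0858 to 0.17. RLE factors moved the median log2 value of all genes for the difference in the effect of tdT from 0.05 to -0.07. Of the fitted values of the 10 genes under the alternatives, 929 kept direction and side of the threshold, 28 came to pass it, 18 no longer passed it and 19 turned sign. Ciita and Cd207 rest on 10 and 4 counts in their lowest libraries, which limits what can be told of them there.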
